A study of Mus musculus with 12 samples.

Results

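The fatty acid oxidation genes of mouse liver were followed through 2 ways of making the organ overgrow. They are 30 genes chosen by symbol: 18 encode mitochondrial proteins, 10 encode peroxisomal proteins, and 2, Acsl1 and Acsl5, encode the synthetases that supply both compartments. All 30 are among the 48576 gene symbols of the count tables, all 30 had at least 10 reads in every one of the 12 libraries, and all 30 are among the 17964 genes that were tested.

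Each library is labelled as hepatocytes, but the RNA was extracted from total liver. In the first model, Col-TRE-YAPS127A; Rosa26-LSL-rtTA mice received AAV-TBG-Cre at 8 to 10 weeks of age, a virus whose hepatocyte promoter switches on rtTA in hepatocytes, and doxycycline then induced YAPS127A, a form of the growth regulator YAP that escapes inhibition by Hippo kinases. YAPS127A was induced for 2 weeks (YAP 2 weeks, n = 2) or 4 weeks (YAP 4 weeks, n = 3), and YAP controls (n = 2) had the same genotype without induction. Doxycycline came with induction, so its own effect cannot be told apart from that of YAPS127A. In the second model, LAP-tTA; TRE-MYC mice (MYC, n = 3) expressed MYC under a liver promoter once doxycycline was gone. It was withdrawn from the mothers at about embryonic day 8. MYC controls (n = 2) carried LAP-tTA alone on the same doxycycline schedule. The MYC mice were collected 4 weeks after birth and the YAP mice were adults, so the models also differ in age. The labels do not state in words that replicates were separate animals. The p-values set group differences against the spread between these libraries within groups, estimated over all 5 groups together.

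Fatty acids are first joined to coenzyme A. Long chains then enter mitochondria as carnitine esters and are shortened step by step by dehydrogenation, hydration, a further dehydrogenation and thiolysis, with electrons passing through the electron transfer flavoprotein to the respiratory chain. Very long and branched chains are first shortened in peroxisomes by a parallel set of enzymes and handed on. In fasting liver much of the acetyl-CoA becomes ketone bodies, and the nuclear receptor PPARA raises transcription of many of these genes.

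Total counts lay between 12511170 and 17690798 reads per library. Levels are given as CPM, the read count of a gene scaled to a common library size, after TMM scaling, a correction for library composition. Endogenous Yap1 was at 65.6 to 87.4 CPM in the 5 induced YAP livers and 81.2 and 86.5 CPM in YAP controls, and the species of the transgene is not stated, so Yap1 reads do not check the induction. Cyr61, a direct YAP target, was at 74.0 to 183 CPM in the induced livers and 35.8 and 50.1 CPM in their controls, and Myc was at 22.2 to 31.4 CPM in MYC livers and 6.71 and 15.5 CPM in MYC controls. In the YAP model Myc was at 64.8 to 117 CPM in the 5 induced livers and 53.2 and 8.17 CPM in YAP controls, so 1 YAP control stood above every MYC liver. Whether all reads of the MYC transgene were counted under mouse Myc is not known, so these values need not be total MYC levels. The YAP 4 weeks replicate 2 library stood closer to controls in Ctgf, another YAP target, at 17.7 CPM, against 70.4 and 414 CPM in the other 4-week livers and 14.9 and 16.8 CPM in YAP controls. Sex-linked transcripts had a female pattern in YAP 2 weeks replicate 2 and in all 3 of the 4-week YAP livers, and a male pattern in every other library. Sex pattern and 4-week induction therefore cannot be told apart. Hepatocyte markers, 9 of 10 listed, summed to 74480 to 93244 CPM after 2 weeks of YAP, 38129 to 76805 CPM after 4 weeks and 83256 to 97312 CPM in YAP controls, and to 33608 to 56894 CPM in MYC livers against 111743 to 116512 CPM in MYC controls. None of these markers was at 0 in any library. Among the 4-week YAP livers replicate 1 stood apart in this sum, at 76805 CPM. Replicates 2 and 3 were at 39674 and 38129 CPM.

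Both YAP times lowered most of the pathway, in mitochondria and peroxisomes alike. After 2 weeks, 23 of the 30 genes fell, 2 rose and 5 did not pass an adjusted p of 0.05 in edgeR's quasi-likelihood test, where 12.7% of all tested genes fell and 15.1% rose. After 4 weeks the counts were again 23 lower, 2 higher and 5 not passing, against 15.7% lower and 18.1% higher among all genes. In MYC livers 6 fell, 2 rose and 22 did not pass, against 8.56% lower and 9.76% higher among all genes. The median log2 fold change of the 30 genes was -1.12 after 2 weeks, -1.29 after 4 weeks and -0.56 with MYC, beside medians of 0.10, 0.18 and 0.02 over all tested genes. The 9 hepatocyte markers had medians of -0.85, -1.20 and -1.05 in these comparisons, and 4, 7 and 5 of them were called lower. Falls were therefore not particular to this pathway.

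In whole-liver RNA, fewer hepatocytes and less RNA per hepatocyte cannot be told apart. Libraries also differed in the share of reads from the mitochondrial genome, which was 7.67% to 13.9% in induced YAP livers, 19.3% and 19.6% in YAP controls, 15.1% to 20.8% in MYC livers and 15.0% and 15.8% in MYC controls. Scaling by total counts in place of TMM moved the median of all genes up by 0.54, 0.73 and 0.41 log2 units in the 2-week YAP, 4-week YAP and MYC comparisons. Under it 13, 11 and 4 of the 30 genes fell and 2, 3 and 5 rose, while 29.1%, 43.8% and 18.2% of all genes rose and 5.45%, 4.99% and 4.14% fell. Relative to the all-gene median the members stood at -1.22, -1.47 and -0.58 under TMM and at -1.24, -1.47 and -0.60 under total counts.

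**Figure D1:**
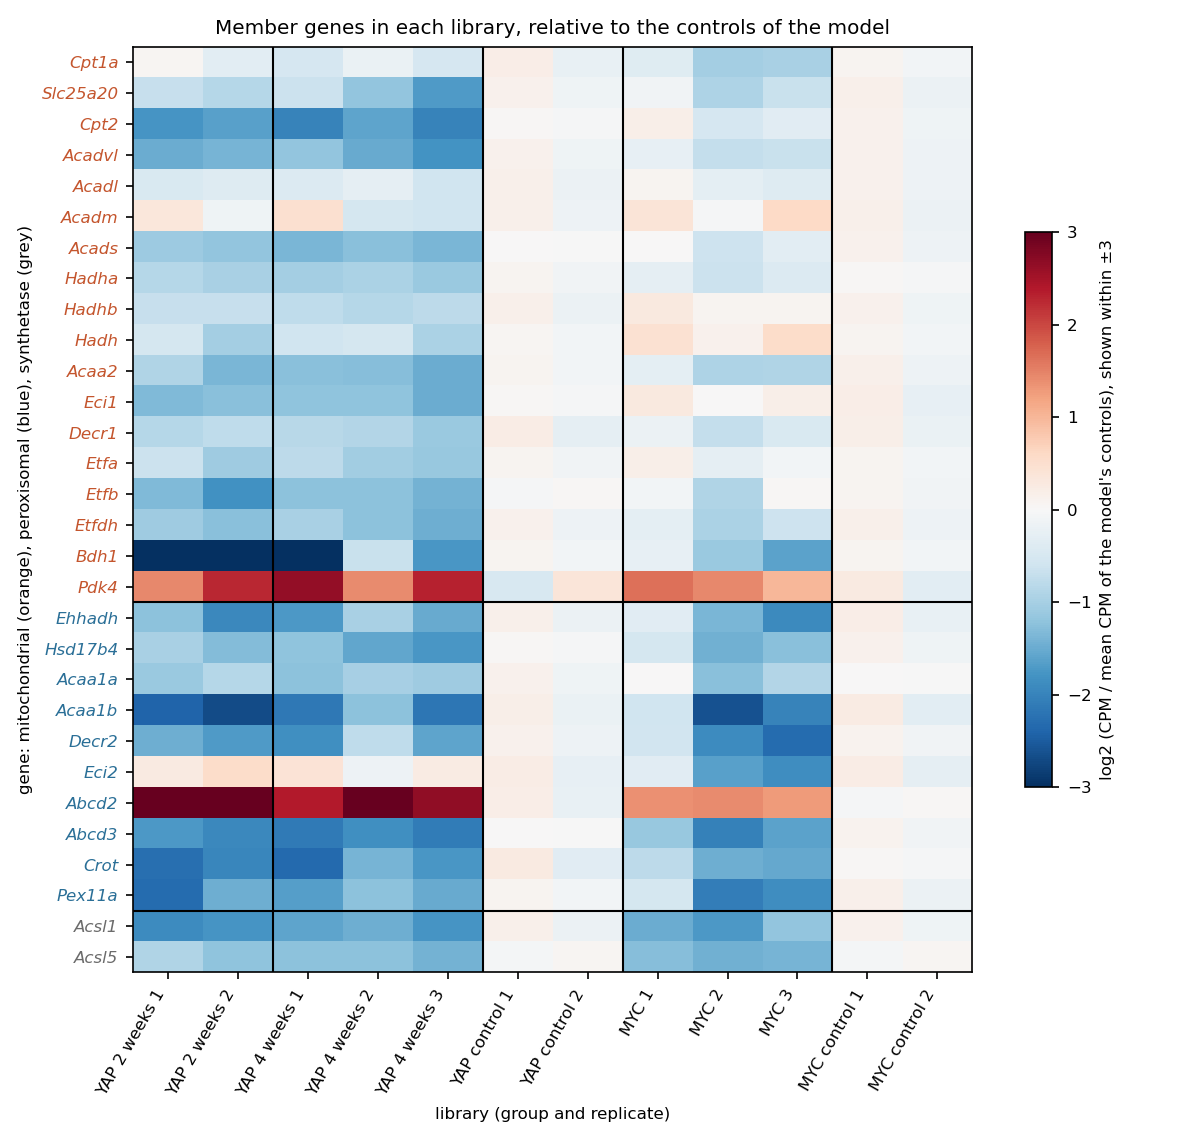
Heat map of the 30 genes (rows, grouped by compartment) in the 12 libraries (columns), as log2 of CPM over the mean CPM of the controls of the same model, with colours limited to the range from -3 to 3. Most rows are blue in all 5 induced YAP libraries, Abcd2 and Pdk4 are red, and among MYC libraries replicate 1 is paler than replicates 2 and 3 in the peroxisomal rows other than Abcd2.

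The acyl-CoA synthetases fell in all 3 comparisons with controls. Acsl1, the main long-chain synthetase of hepatocytes, had 273 and 292 CPM in the 2-week YAP livers, 333, 363 and 294 CPM in the 4-week YAP livers and 1116 and 892 CPM in YAP controls. The induced livers all lay below the controls, by -1.83 ± 0.25 log2 units (± SE) after 2 weeks and -1.61 ± 0.22 after 4 weeks (adjusted p = 0.000543 and 0.000414). It had 652, 556 and 804 CPM in MYC livers and 1991 and 1673 CPM in MYC controls, a log2 fold change of -1.45 ± 0.22 (adjusted p = 0.00178). Acsl5, which activates the same range of chain lengths, had 138 and 112 CPM in the 2-week YAP livers, 109, 109.9 and 96.0 CPM in the 4-week YAP livers and 247 and 269 CPM in YAP controls, and fell to a similar degree at both times (log2 fold changes -1.05 ± 0.18 and -1.30 ± 0.16, adjusted p = 0.00161 and 0.00022). In the MYC model it had 149.8, 134 and 139 CPM in MYC livers and 349 and 379.9 CPM in MYC controls, 2.59-fold lower in MYC livers (log2 fold change -1.37 ± 0.16, adjusted p = 0.000506). Both genes kept an adjusted p under 0.05 in all 3 comparisons when any 1 library was left out, and under total-count scaling.

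Of the 3 genes of the carnitine shuttle, Cpt2 fell at both YAP times, Slc25a20 after 4 weeks and Cpt1a at neither. Cpt1a, the outer-membrane transferase whose inhibition by malonyl-CoA sets the rate of entry, had 558 and 431 CPM in the 2-week YAP livers, 381, 467 and 383 CPM in the 4-week YAP livers and 619 and 461 CPM in YAP controls, with overlapping groups. Its log2 fold changes were -0.13 ± 0.27 and -0.40 ± 0.25 (95% intervals -0.73 to 0.47 and -0.94 to 0.15, adjusted p = 0.767 and 0.237), and turned positive, 0.39 and 0.34, under total-count scaling. The MYC model gave 486, 307 and 316 CPM in MYC livers and 657 and 589.8 CPM in MYC controls, all below the controls, at -0.75 ± 0.25 (adjusted p = 0.0548), and it passed without MYC replicate 1 (-1.00, adjusted p = 0.00959).

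Slc25a20, the translocase that exchanges acylcarnitine for carnitine across the inner membrane, had 44.1 and 39.3 CPM in the 2-week YAP livers, 45.0, 31.3 and 22.0 CPM in the 4-week YAP livers and 77.2 and 64.5 CPM in YAP controls. It did not pass after 2 weeks (-0.76 ± 0.32, adjusted p = 0.1) and fell after 4 (-1.11 ± 0.29, adjusted p = 0.0135), a call that ended under total-count scaling (-0.41, adjusted p = 0.158). Cpt2, which re-forms acyl-CoA inside the mitochondrion, was the mitochondrial gene furthest below controls after 4 weeks. It had 40.5 and 45.0 CPM in the 2-week YAP livers, 34.4, 46.1 and 34.4 CPM in the 4-week YAP livers and 142 and 134 CPM in YAP controls, no YAP liver reaching 50 CPM. The log2 fold changes were -1.69 ± 0.24 and -1.85 ± 0.21 (adjusted p = 0.00065 and 0.000162), 3.23-fold and 3.61-fold lower. In the MYC model Cpt2 had 131, 82.4 and 91.6 CPM in MYC livers and 126 and 106 CPM in MYC controls, overlapping groups with a log2 fold change of -0.19 ± 0.21 (adjusted p = 0.579) that was 0.20 under total-count scaling.

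The acyl-CoA dehydrogenases take the first step of each mitochondrial cycle, and 2 of the 4 fell at each YAP time. Acadvl, for very long chains, had 47.4 and 50.9 CPM in the 2-week YAP livers, 59.1, 46.5 and 38.4 CPM in the 4-week YAP livers and 145 and 122 CPM in YAP controls, and Acads, for short chains, had 44.5 and 42.0 CPM in the 2-week YAP livers, 36.8, 40.0 and 37.0 CPM in the 4-week YAP livers and 95.2 and 95.2 CPM in YAP controls. Both fell: Acadvl by 1.44 and 1.48 log2 units after 2 and 4 weeks (adjusted p = 0.00142 and 0.000492) and Acads by 1.14 and 1.33 (adjusted p = 0.00207 and 0.000382). Acadl, for long chains, and Acadm, for medium chains, did not pass at either time. Acadl had log2 fold changes of -0.42 and -0.42, which were 0.12 and 0.32 under total-count scaling. Acadm had 281 and 205 CPM in the 2-week YAP livers, 309.8, 154 and 148 CPM in the 4-week YAP livers and 246 and 200.2 CPM in YAP controls, with replicate 1 of each time above both controls and the other induced livers at or below 205 CPM. Its log2 fold changes were 0.12 ± 0.36 and -0.13 ± 0.33 (95% intervals -0.66 to 0.91 and -0.85 to 0.58). No dehydrogenase passed in the MYC livers, where the log2 fold changes were -0.52 for Acadvl, -0.18 for Acadl, 0.34 for Acadm and -0.28 for Acads, those of Acadl and Acads turning to 0.22 and 0.12 under total-count scaling. Acadvl passed without MYC replicate 1 (-0.69, adjusted p = 0.0359).

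The genes of the later steps of the mitochondrial cycle also fell in YAP livers. Hadha and Hadhb encode the alpha and beta subunits of the trifunctional protein, which carries out the last 3 reactions on long chains. Hadha had 188 and 173 CPM in the 2-week YAP livers, 167, 175 and 158 CPM in the 4-week YAP livers and 362 and 316 CPM in YAP controls. Hadhb had 41.3 and 41.7 CPM in the 2-week YAP livers, 39.4, 36.9 and 38.8 CPM in the 4-week YAP livers and 74.8 and 59.5 CPM in YAP controls. No induced liver overlapped a control for either subunit. Hadha fell by 0.91 and 1.03 log2 units and Hadhb by 0.69 and 0.81 after 2 and 4 weeks (adjusted p = 0.00488 and 0.00112 for Hadha, 0.00996 and 0.00212 for Hadhb). Under total-count scaling all 4 of these calls ended, with log2 fold changes of -0.38 and -0.29 for Hadha (adjusted p = 0.123 and 0.159) and -0.16 and -0.07 for Hadhb (adjusted p = 0.531 and 0.745). With MYC, Hadha had 381, 294 and 347 CPM in MYC livers and 471 and 453 CPM in MYC controls (-0.44 ± 0.17, adjusted p = 0.0913), and it passed without MYC replicate 1 (-0.53, adjusted p = 0.0483). Hadhb had 100.5, 87.0 and 87.0 CPM in MYC livers and 89.0 and 74.9 CPM in MYC controls (0.16 ± 0.15, adjusted p = 0.502), and was called higher, at 0.57, under total-count scaling (adjusted p = 0.034).

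Hadha and Hadhb lie head to head on mouse chromosome 5 (GRCm38), Hadha at chr5:30118304-30155162 on the minus strand and Hadhb at chr5:30155248-30184593 on the plus strand. In RefSeq's table for GRCm38.p6 their start sites are at 30154980 and 30155253, with 272 bases between them. The window around the Hadhb start, 250 bases before it to 50 after it, is shown because it overlaps the window of the other subunit, and the capitals mark the 228 bases that the windows of both genes share.
Hadhb, chr5:30155003-30155302, plus strand: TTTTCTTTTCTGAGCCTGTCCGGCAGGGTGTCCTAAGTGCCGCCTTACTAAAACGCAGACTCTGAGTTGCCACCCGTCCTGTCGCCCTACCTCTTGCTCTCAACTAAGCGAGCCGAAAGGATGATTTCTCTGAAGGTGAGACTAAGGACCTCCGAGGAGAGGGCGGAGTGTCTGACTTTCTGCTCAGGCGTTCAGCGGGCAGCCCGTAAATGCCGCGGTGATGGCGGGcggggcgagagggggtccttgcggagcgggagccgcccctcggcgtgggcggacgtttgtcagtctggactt

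Hadh, the dehydrogenase for shorter chains, fell by 0.74 and 0.69 log2 units in YAP livers (adjusted p = 0.0353 and 0.0273), a call that ended under total-count scaling, where the 4-week value was 0.04. In the MYC model Hadh had 448, 358 and 478 CPM in MYC livers and 347 and 307 CPM in MYC controls, all MYC livers above both controls, at 0.39 ± 0.22 (adjusted p = 0.238). With MYC it was called higher under total-count scaling, at 0.80 (adjusted p = 0.0132). Acaa2, the thiolase that releases acetyl-CoA, had the highest level per kilobase of exon of the 30 genes in every group, with a mean of 144 CPM per kb after 2 weeks of YAP, 123 after 4 weeks and 313 in YAP controls. It fell by 1.12 and 1.34 log2 units (adjusted p = 0.00993 and 0.00169). With MYC its log2 fold change was -0.67 ± 0.24 (adjusted p = 0.0703), and it passed without MYC replicate 1 (-0.91, adjusted p = 0.0111).

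Eci1 and Decr1 rearrange the double bonds of unsaturated acids so that the cycle can go on. Eci1 had 25.1 and 26.7 CPM in the 2-week YAP livers, 27.3, 27.4 and 22.4 CPM in the 4-week YAP livers and 64.3 and 62.0 CPM in YAP controls, and fell by 1.29 log2 units after 2 weeks and 1.30 after 4 (adjusted p = 0.000715 and 0.000283). In the MYC model it had 77.4, 64.3 and 72.3 CPM in MYC livers and 73.1 and 54.0 CPM in MYC controls, with overlapping groups (0.17 ± 0.17, adjusted p = 0.528). Under total-count scaling it was called higher, at 0.58 (adjusted p = 0.038). Decr1 fell by 0.80 and 0.93 in YAP livers (adjusted p = 0.023 and 0.00548), calls that ended under total-count scaling (-0.26 and -0.20, adjusted p = 0.36 and 0.397), and was at -0.44 ± 0.20 with MYC (adjusted p = 0.162).

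All 3 genes of the electron transfer flavoprotein chain fell at both YAP times. Etfa and Etfb encode the subunits of the flavoprotein and Etfdh the dehydrogenase that passes its electrons to ubiquinone. After 4 weeks the log2 fold changes were -0.98 ± 0.19 for Etfa, -1.29 ± 0.25 for Etfb and -1.21 ± 0.22 for Etfdh (adjusted p = 0.00292, 0.00298 and 0.00205), and after 2 weeks they were -0.83, -1.55 and -1.16. Under total-count scaling the calls of Etfa at both times (-0.32 after 2 weeks and -0.25 after 4, adjusted p = 0.158 and 0.185) and that of Etfb after 4 weeks (-0.56, adjusted p = 0.0751) ended, while Etfdh passed at both. With MYC none passed, at -0.05, -0.25 and -0.59, and the values of Etfa and Etfb were 0.35 and 0.15 under total-count scaling. Etfdh passed without MYC replicate 1 (-0.77, adjusted p = 0.0271).

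The last mitochondrial genes are Bdh1 and Pdk4. Bdh1, the dehydrogenase that interconverts the ketone bodies acetoacetate and 3-hydroxybutyrate, had 12.8 and 15.5 CPM in the 2-week YAP livers, 5.78, 90.0 and 42.9 CPM in the 4-week YAP livers and 152 and 134 CPM in YAP controls. It fell 10.1-fold after 2 weeks (log2 fold change -3.34 ± 0.97, adjusted p = 0.0319) and did not pass after 4 (-1.63 ± 0.80, adjusted p = 0.145), where replicate 1 resembled the 2-week livers and replicate 2 stood highest. Leaving out any 1 library ended the 2-week call. With MYC, Bdh1 had 425, 232 and 166 CPM in MYC livers and 536 and 475 CPM in MYC controls, all MYC livers below the controls (-0.88 ± 0.79, adjusted p = 0.489).

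Pdk4, a kinase that shuts pyruvate dehydrogenase and so spares glucose when fat is burned, rose in all 3 comparisons. It had 6.23 and 11.1 CPM in the 2-week YAP livers, 14.2, 6.14 and 11.5 CPM in the 4-week YAP livers and 1.64 and 2.97 CPM in YAP controls, and rose 3.78-fold after 2 weeks and 4.60-fold after 4 (log2 fold changes 1.92 ± 0.48 and 2.20 ± 0.46, adjusted p = 0.0132 and 0.00433). The MYC model gave 22.7, 19.7 and 14.5 CPM in MYC livers and 8.66 and 5.77 CPM in MYC controls, 2.63-fold higher (1.40 ± 0.42, adjusted p = 0.0382). Every induced liver stood above its controls in both models. The call in MYC livers ended when any library other than MYC replicate 3 was left out (adjusted p up to 0.248).

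**Figure D2:**
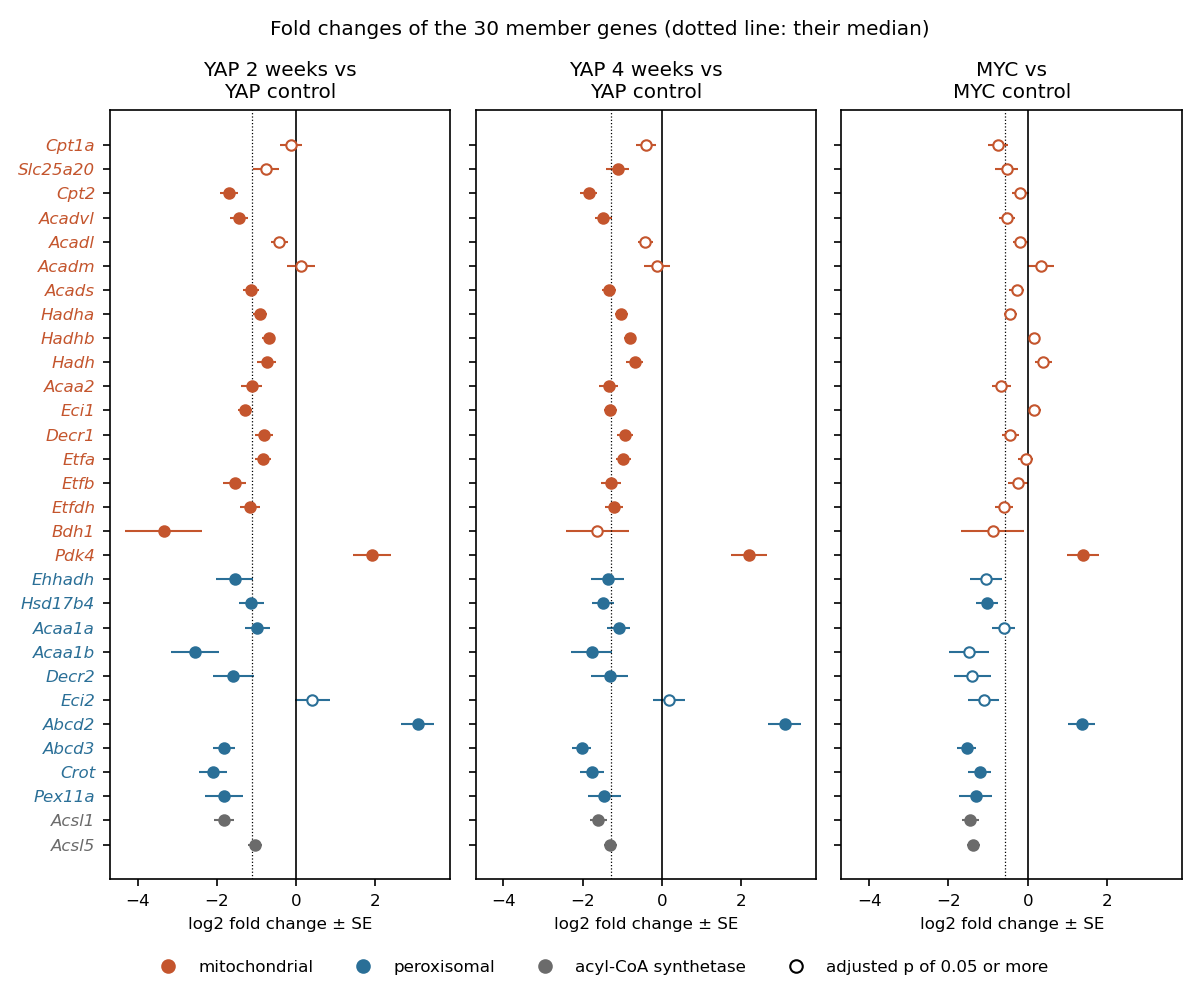
Log2 fold change ± SE of each of the 30 genes in 2-week YAP, 4-week YAP and MYC livers against the controls of each model, with filled points at an adjusted p under 0.05. The dotted line in each panel is the median of the 30 genes, at -1.12, -1.29 and -0.56, and the mitochondrial points of the MYC panel are open apart from Pdk4.

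The peroxisomal enzymes of the shortening cycle were lower at both YAP times, 5 of 6 passing at each, the exception being Eci2. Under total-count scaling 1 of the 6 was called lower at each time, Acaa1b after 2 weeks (-2.02, adjusted p = 0.0151) and Hsd17b4 after 4 (-0.77, adjusted p = 0.00836). The others that had passed were then at -0.43 to -1.05 after 2 weeks and -0.35 to -1.03 after 4. Ehhadh, the L-bifunctional hydratase and dehydrogenase, had 51.6 and 31.7 CPM in the 2-week YAP livers, 36.7, 62.2 and 42.6 CPM in the 4-week YAP livers and 136 and 108 CPM in YAP controls (-1.55 ± 0.47 and -1.37 ± 0.41, adjusted p = 0.0332 and 0.0281). With MYC it had 117, 57.1 and 39.6 CPM in MYC livers and 169.6 and 127 CPM in MYC controls, with replicate 1 close to the lower control (-1.05 ± 0.41, adjusted p = 0.103; without replicate 1, -1.61 and 0.00546). Leaving out any 1 library of the 2-week comparison ended that call. Hsd17b4, the D-bifunctional enzyme needed for very long and branched chains, had 323 and 255 CPM in the 2-week YAP livers, 273, 213 and 187 CPM in the 4-week YAP livers and 645 and 615 CPM in YAP controls, and fell by 1.13 and 1.49 log2 units (adjusted p = 0.0187 and 0.00213). It was the only gene of this cycle to fall with MYC, with 398, 213 and 240.1 CPM in MYC livers and 627 and 527 CPM in MYC controls (-1.02 ± 0.27, adjusted p = 0.0244), and that call ended when any library other than MYC replicate 1 was left out (adjusted p up to 0.173).

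Acaa1a and Acaa1b are near-identical peroxisomal thiolases, and how reads that match both were counted is not stated, so their separate values are uncertain. Acaa1b, the copy known for its high expression in liver, had 31.2 and 25.8 CPM in the 2-week YAP livers, 37.6, 71.0 and 37.0 CPM in the 4-week YAP livers and 187 and 145 CPM in YAP controls. It fell by 2.54 and 1.77 log2 units (adjusted p = 0.0127 and 0.0254). The MYC model gave 174, 43.0 and 66.0 CPM in MYC livers and 314 and 213 CPM in MYC controls (-1.48 ± 0.51, adjusted p = 0.0733; without replicate 1, -2.27 and 0.00208). Acaa1a fell by 0.97 and 1.09 in YAP livers (adjusted p = 0.0422 and 0.0137) and was at -0.61 ± 0.29 with MYC (adjusted p = 0.163).

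Decr2, the peroxisomal dienoyl-CoA reductase, fell by 1.58 and 1.32 in YAP livers, close to the threshold (adjusted p = 0.0477 and 0.0493). In the MYC model it had 99.2, 40.1 and 29.7 CPM in MYC livers and 159 and 137 CPM in MYC controls, replicate 1 again highest of the MYC livers (-1.40 ± 0.46, adjusted p = 0.0605). Eci2, an isomerase that also has a mitochondrial form, behaved unlike the rest of the group in YAP livers, with 189 and 228 CPM in the 2-week YAP livers, 207, 141 and 186 CPM in the 4-week YAP livers and 182 and 131 CPM in YAP controls (0.41 ± 0.44 and 0.18 ± 0.40, adjusted p = 0.52 and 0.754). Under total-count scaling it was called higher after 4 weeks (0.91, adjusted p = 0.0492). In the MYC model it had 136, 55.9 and 47.2 CPM in MYC livers and 201 and 144 CPM in MYC controls (-1.11 ± 0.40, adjusted p = 0.0756), and it passed without MYC replicate 1 (-1.74, adjusted p = 0.00112).

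Of the 4 genes of peroxisomal transport and division, Abcd3, Crot and Pex11a fell in all 3 comparisons with controls and Abcd2 rose in them. Abcd3, a transporter of long, branched and dicarboxylic acyl-CoA into the peroxisome, had 221 and 189 CPM in the 2-week YAP livers, 166, 202 and 169 CPM in the 4-week YAP livers and 729.7 and 728 CPM in YAP controls. It fell 3.55-fold and 4.06-fold (log2 fold changes -1.83 ± 0.27 and -2.02 ± 0.24, adjusted p = 0.000882 and 0.000203). The MYC model gave 324, 175 and 237 CPM in MYC livers and 768 and 664 CPM in MYC controls, 2.92-fold lower (-1.54 ± 0.24, adjusted p = 0.00206), and the call held in all 3 comparisons without any 1 library and under total-count scaling.

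Crot makes the octanoyl-carnitine with which shortened chains leave the peroxisome. It had 69.6 and 86.0 CPM in the 2-week YAP livers, 66.4, 127 and 99.3 CPM in the 4-week YAP livers and 402 and 262 CPM in YAP controls (-2.09 ± 0.35 and -1.77 ± 0.30, adjusted p = 0.0015 and 0.00141), and 188, 119 and 113 CPM in MYC livers and 332 and 318 CPM in MYC controls (-1.22 ± 0.30, adjusted p = 0.0178). Induced livers lay below controls in both models, and the MYC call ended under total-count scaling (adjusted p = 0.0668) or when any library other than MYC replicate 1 was left out (adjusted p up to 0.108). Pex11a, which promotes peroxisome division, had 7.72 and 13.9 CPM in the 2-week YAP livers, 12.2, 16.3 and 13.5 CPM in the 4-week YAP livers and 40.3 and 36.3 CPM in YAP controls (-1.82 ± 0.47 and -1.45 ± 0.41, adjusted p = 0.0164 and 0.0205), the 4-week call ending under total-count scaling (-0.71, adjusted p = 0.14). With MYC it had 30.5, 10.4 and 12.1 CPM in MYC livers and 48.9 and 39.2 CPM in MYC controls (-1.32 ± 0.41, adjusted p = 0.0472; without replicate 1, -1.97 and 0.000867), and the MYC call ended under total-count scaling (adjusted p = 0.0897) or when any library other than MYC replicate 1 was left out (adjusted p up to 0.238).

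Abcd2, an importer of very long and polyunsaturated acyl-CoA with overlapping function to the adrenoleukodystrophy protein, was the exception. It had 33.9 and 35.3 CPM in the 2-week YAP livers, 21.5, 58.4 and 26.1 CPM in the 4-week YAP livers and 4.73 and 3.50 CPM in YAP controls, no induced liver near a control. It rose 8.38-fold after 2 weeks and 8.56-fold after 4 (log2 fold changes 3.07 ± 0.42 and 3.10 ± 0.41, adjusted p = 0.000684 and 0.000415). With MYC it had 135, 140.3 and 127 CPM in MYC livers and 51.0 and 53.5 CPM in MYC controls, 2.57-fold higher (1.36 ± 0.35, adjusted p = 0.0231), a call that ended without MYC replicate 2 or without either control (adjusted p up to 0.157). Per kilobase of exon, Abcd2 averaged 0.692 CPM per kb in YAP controls and 8.79 in MYC controls, so the controls of the models differed in its level.

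**Figure D3:**
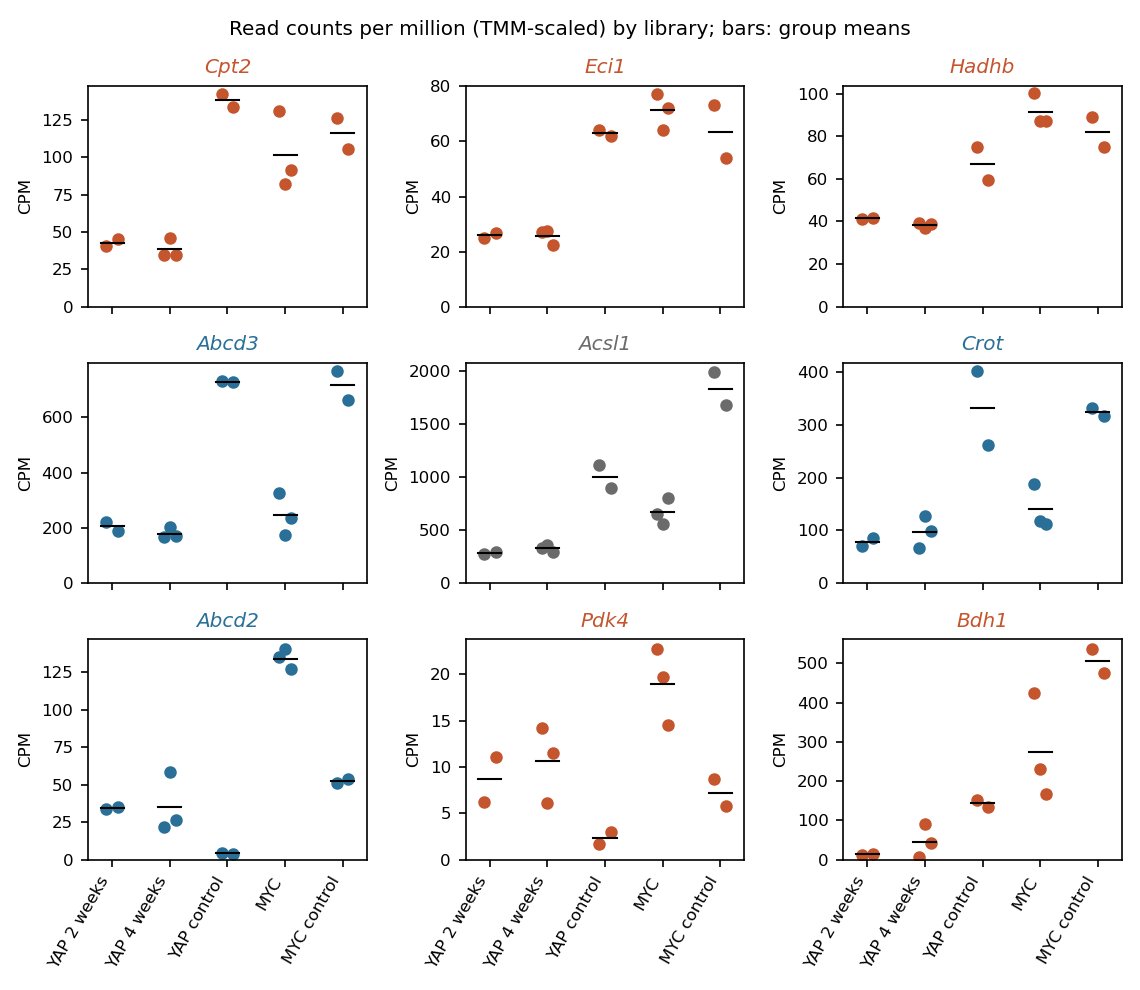
CPM of 9 of the genes in each library (points) with group means (bars), every axis starting at 0. Cpt2, Eci1 and Hadhb are low in the YAP livers and overlap between MYC livers and MYC controls, Abcd3, Acsl1 and Crot are low in YAP and MYC livers, Abcd2 and Pdk4 are high in both, and Bdh1 spreads widely after 4 weeks of YAP and with MYC.

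Set side by side, both compartments were lowered in YAP livers, whereas in MYC livers the genes called lower were peroxisomal genes and the synthetases. After 2 weeks of YAP 13 of 18 mitochondrial genes fell (median log2 fold change -0.87) and 8 of 10 peroxisomal genes fell (median -1.56). After 4 weeks the same numbers fell, with medians of -1.07 and -1.41. Leaving out any 1 library cut the peroxisomal calls after 2 weeks to 2 or 3 and left 6 to 11 mitochondrial ones, while after 4 weeks 3 to 8 peroxisomal and 10 to 14 mitochondrial calls were left, the fewest peroxisomal ones at each time without YAP control replicate 1. Over all genes these fits called 2445 to 3671 after 2 weeks and 3324 to 6231 after 4, against 4993 and 6073 with every library. With MYC 0 of 18 mitochondrial genes fell (median -0.27) and 4 of 10 peroxisomal genes fell, namely Abcd3, Crot, Hsd17b4 and Pex11a (median -1.16). The 9 hepatocyte markers had a median of -1.05 with MYC. DESeq2 called 3 mitochondrial and 7 peroxisomal genes lower with MYC, and 9.78% of all genes it tested. Over the 30 genes, 17 had an unadjusted p under 0.05 in the edgeR test of MYC livers, beside 5913 of all 17964 tested genes.

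The mean log2 CPM over the mitochondrial genes minus that over the peroxisomal genes was taken within each library. It averaged 0.14 ± 0.06 after 2 weeks of YAP (SD, n = 2), 0.03 ± 0.22 after 4 weeks (n = 3) and 0.02 ± 0.10 in YAP controls (n = 2). Abcd2, which rose by 3.07 and 3.10 log2 units at these times and 1.36 with MYC, lifts the peroxisomal mean. The difference was not taken without it. Median log2 fold changes after 2 and 4 weeks were -1.56 and -1.41 for peroxisomal genes, and -0.87 and -1.07 for mitochondrial genes. The YAP means thus do not show that the compartments moved equally. In MYC livers the difference was 0.28, 0.84 and 0.97, and in MYC controls -0.13 and -0.16, so that no MYC liver overlapped a MYC control. The difference between MYC livers and MYC controls was 0.84 log2 units, and 1.05 without MYC replicate 1.

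MYC replicate 1 stood apart in this respect. Its mean over the peroxisomal genes was 7.07 log2 CPM, against 5.99 and 6.03 in the other MYC livers and 7.54 and 7.29 in MYC controls. Its mean over the mitochondrial genes was 7.35, against 6.83 and 7.0 in the other MYC livers and 7.40 and 7.13 in MYC controls. This library also had the highest mitochondrial genome share, 20.8%, of the MYC livers. Without it, 16 of the 30 genes fell with MYC, 9 of 10 peroxisomal and 5 of 18 mitochondrial (Cpt1a, Acadvl, Hadha, Acaa2 and Etfdh), while the share of all genes called lower was 12.1%, against 8.56% with it. Leaving out MYC replicate 2 gave 3 genes lower in all and 1 of them peroxisomal, with 3.76% of all genes lower. Leaving out replicate 3 also gave 3, with 5.29% of all genes lower. The number of MYC calls, among the members and among all genes, thus rests on which livers are included.

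**Figure D4:**
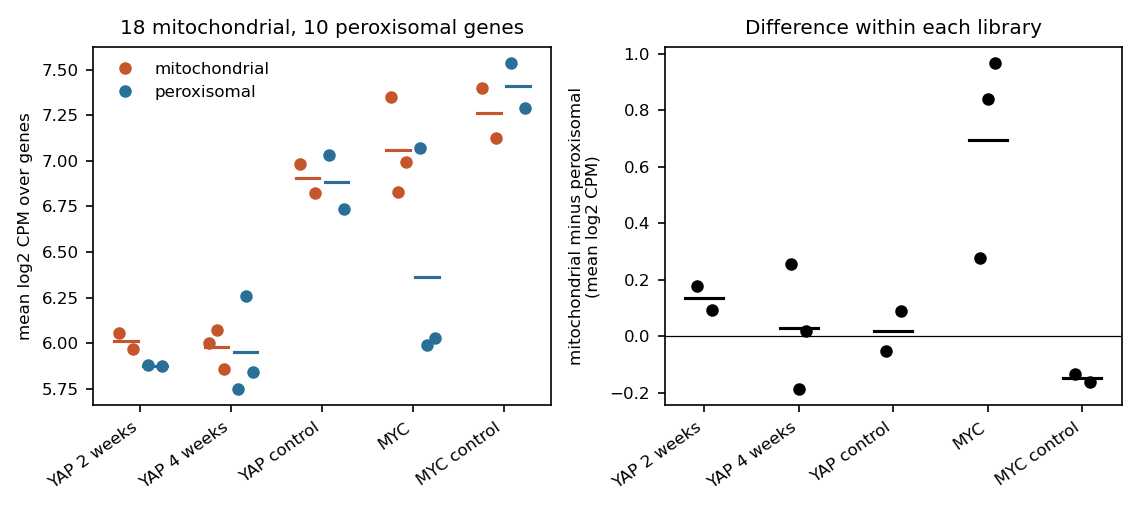
Left, mean log2 CPM over the 18 mitochondrial and the 10 peroxisomal genes in each library (points) with group means (bars). Right, the difference between these means within each library, which is 0.28 to 0.97 in MYC livers, -0.16 to -0.13 in MYC controls, and between -0.19 and 0.25 in the YAP model.

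The MYC effect was set against the 4-week YAP effect as the difference of the log2 fold changes, a contrast in which the models share no library. It was called higher in MYC livers for 4 of the 30 genes and lower for 0, where 3.15% of all genes were called higher and 4.33% lower. DESeq2 called 8 members higher and 1 lower, against 6.08% and 7.22% of the genes it tested. In edgeR 11 of the 30 had an unadjusted p under 0.05, beside 4407 of all 17964 tested genes. All 4 of the edgeR calls are mitochondrial. The difference was 1.46 ± 0.24 for Eci1 (adjusted p = 0.00508), 1.66 ± 0.30 for Cpt2 (0.00921), 0.97 ± 0.21 for Hadhb (0.0199) and 1.05 ± 0.26 for Acads (0.0315). Those of Hadhb and Acads did not pass under total-count scaling, and Eci1 alone passed without any 1 of the 10 libraries. Of the peroxisomal genes Abcd2 had the smallest adjusted p, at -1.74 ± 0.51 (adjusted p = 0.0633). For Abcd3, Crot, Hsd17b4 and Pex11a the difference was 0.48, 0.55, 0.47 and 0.14, with 95% intervals from -0.27 to 1.23, from -0.39 to 1.49, from -0.39 to 1.32 and from -1.16 to 1.43. For Acsl1 and Acsl5 it was 0.16 and -0.07, with intervals from -0.53 to 0.84 and from -0.57 to 0.42. The models differ in age, mouse line and sex pattern as well as in the transgene, and these cannot be told apart here. Reads counted as Myc were also at 22.2 to 31.4 CPM in MYC livers and 64.8 to 117 CPM in the 4-week YAP livers. They may leave out reads of the MYC transgene, so they need not be total MYC levels. The part of Myc in the contrast was not tested.

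**Figure D5:**
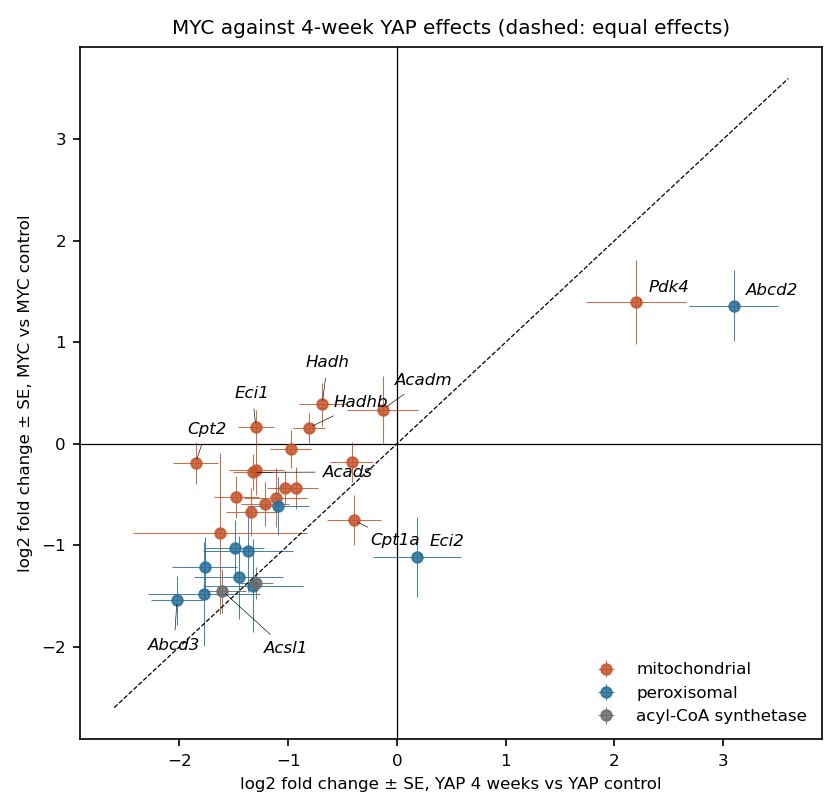
Log2 fold change ± SE of the 30 genes in MYC livers (vertical) against that after 4 weeks of YAP (horizontal), coloured by compartment, with the dashed line marking equal effects. The mitochondrial genes lie mostly above the line, with Cpt2 at -1.85 for YAP and -0.19 for MYC, while Abcd3 and Acsl1 are low on both axes.

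Between the YAP times no member passed. The 4-week livers differed from the 2-week livers in 0 of 30 genes in either direction, where 0% of all genes were called higher and 0.0612% lower, and 0 of 30 had an unadjusted p under 0.05, beside 1250 of all genes. DESeq2 called 0 members and 77 genes in all. The interval for the 4-week over 2-week log2 fold change ran from -0.62 to 0.31 for Cpt2, from -0.72 to 0.33 for Abcd3 and from -0.25 to 3.67 for Bdh1, so a change of Bdh1 of several fold was not detectable with these livers. Without YAP 4 weeks replicate 1, 1 member was called higher, and 501 genes in all were called, against 11 with every library.

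The 2 YAP times share their controls, so their counts are not independent of each other. The 6 genes that fell with MYC (Acsl1, Acsl5, Abcd3, Crot, Hsd17b4 and Pex11a) also fell at both YAP times. As 22 of the 30 genes fell at both YAP times, this overlap does not mark the 6 out. The same overlap over all tested genes was not counted. Of the 30 genes, only Cpt1a, Acadl, Acadm and Eci2 passed in none. Skeletal muscle markers, 12 genes, summed to 457 and 501 CPM in the 2-week YAP livers, 3.24 to 18.6 CPM in the 4-week livers and 0.955 and 1.26 CPM in YAP controls, where 8 and 10 of the 12 were at 0. Cpt1b, the muscle form of carnitine palmitoyltransferase, had 0 reads in both 2-week libraries. Macrophage markers, 8 genes, summed to 1129 to 1474 CPM after 2 weeks of YAP, 435 to 890 CPM after 4 weeks and 196 to 209 CPM in YAP controls, and to 407 to 664 CPM in MYC livers against 213 to 221 CPM in MYC controls. Cholangiocyte markers, 8 genes, summed to 565 and 1182 CPM after 2 weeks of YAP, 397 to 3085 CPM after 4 weeks and 105 and 116 CPM in YAP controls, and to 3.22 to 8.94 CPM in MYC livers against 12.5 and 17.5 CPM in MYC controls. After 4 weeks replicate 1 had 397 CPM, and replicates 2 and 3 had 3022 and 3085 CPM. The part of these cells in the members' results was not tested.

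Around the members, the transcript of the receptor PPARA also fell. Ppara had 67.5 and 50.6 CPM in the 2-week YAP livers, 57.8, 55.7 and 52.2 CPM in the 4-week YAP livers and 171 and 112 CPM in YAP controls, and 85.3, 54.8 and 53.0 CPM in MYC livers and 163 and 163 CPM in MYC controls. It fell in all 3 comparisons (log2 fold changes -1.26, -1.35 and -1.34, adjusted p = 0.00555, 0.00162 and 0.00379). Angptl4, a secreted inhibitor of lipoprotein lipase and a PPARA target, passed in none (0.35, 0.09 and -1.91).

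The lists that follow are read against the shares of all genes, 12.7%, 15.7% and 8.56% lower and 15.1%, 18.1% and 9.76% higher in the 2-week YAP, 4-week YAP and MYC comparisons. Of 16 other genes of mitochondrial oxidation and ketogenesis, 6, 7 and 3 fell and 1, 1 and 2 rose in the 2-week YAP, 4-week YAP and MYC comparisons. Acadsb, for short branched chains, fell by 1.22, 1.52 and 1.17 log2 units, while Acad9, which also helps to assemble respiratory complex I, fell by 1.19 and 0.97 with YAP and was at -0.43 with MYC (adjusted p = 0.103). Of 21 other peroxisomal genes, 10, 12 and 6 fell and 3, 4 and 4 rose. Nudt7, which degrades coenzyme A in peroxisomes, had 15.8 and 8.67 CPM in the 2-week YAP livers, 12.8, 14.1 and 11.3 CPM in the 4-week YAP livers and 673 and 748 CPM in YAP controls, and 45.3, 27.3 and 40.5 CPM in MYC livers and 543 and 621 CPM in MYC controls. It fell by 5.86, 5.80 and 3.95 log2 units (adjusted p = 3.34e-05, 4.84e-06 and 7.49e-05), more than any member. Scp2, which encodes a peroxisomal thiolase and a sterol carrier, fell by 2.85, 3.14 and 2.38.

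Peroxisome biogenesis genes, 15 in all, fell in 9, 10 and 6 cases. Pex16, which inserts membrane proteins, fell by 1.71, 1.87 and 0.96 log2 units and Pex5, the import receptor, by 0.93, 1.22 and 1.10. In a list of 17 nuclear genes that reflect mitochondrial content, 11 fell after 2 weeks of YAP and 15 after 4, but 1 with MYC, and 1 rose in each. The difference of the effects was called higher in MYC livers for 7 of the 17. Fh1, the fumarase of the citric acid cycle, was among them, with 4-week YAP and MYC log2 fold changes of -1.68 and -0.31 (difference 1.36 ± 0.28, adjusted p = 0.0157), and Sdha was at -1.49 and -0.75 (difference 0.75 ± 0.28, adjusted p = 0.131).

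The remaining lists were mixed. Of 14 regulators 4, 6 and 4 fell. Creb3l3, a liver transcription factor of fasting, fell by 2.13 and 1.73 with YAP and was at -0.88 with MYC (adjusted p = 0.153). Of 16 PPARA targets outside oxidation 4, 6 and 4 fell and 5, 5 and 1 rose. Mgll, a monoacylglycerol lipase, fell by 3.13, 3.07 and 1.44 log2 units. Fgf21, a hormone of the fasted liver, had 0.213 and 3.29 CPM in the 2-week YAP livers, 2.67, 1.09 and 2.34 CPM in the 4-week YAP livers and 0 and 0.106 CPM in YAP controls, and 0.536, 0.28 and 0.058 CPM in MYC livers and 21.2 and 18.9 CPM in MYC controls. It was higher with YAP and lower with MYC (adjusted p = 0.0386, 0.0241 and 0.00232), and YAP control replicate 1 had 0 reads. Of 11 genes of uptake, binding and other synthetases 7, 7 and 3 fell and 2, 1 and 1 rose, among them Acsl4, a synthetase for arachidonic acid, down by 0.62, 0.67 and 1.34, and Slc27a4, a fatty acid transport protein, down by 0.66, 0.68 and 0.88.

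Promoter windows from RefSeq (GRCm38.p6, 250 bases before to 50 after the start) were found for 26 of the 30 genes, in 29 entries. They were searched on both strands for AGGTCA, the half-site of many nuclear receptors, and for a pair of AGGTCA half-sites in the same orientation with 1 base of any kind between them, the direct repeat that PPARA binds with its partner RXR. The half-site occurs in 3 of the 29 windows (10.3%), of Cpt1a, Acadm and Acadvl, against 16.3% of all 32851 windows in the table, and the direct repeat in 0 of 29, against 0.0396%. The E-box CACGTG, which MYC binds with MAX and which was added to the search later, occurs in 0 of 29, against 7.15%. The full repeat holds the half-site, so these counts are not independent. These letters bear only on these windows. The 3 windows with a half-site are shown because Cpt1a and Acadm did not pass in any comparison while Acadvl fell in YAP livers. Capitals mark the half-site, read on either strand.
Cpt1a, chr19:3323051-3323350, plus strand: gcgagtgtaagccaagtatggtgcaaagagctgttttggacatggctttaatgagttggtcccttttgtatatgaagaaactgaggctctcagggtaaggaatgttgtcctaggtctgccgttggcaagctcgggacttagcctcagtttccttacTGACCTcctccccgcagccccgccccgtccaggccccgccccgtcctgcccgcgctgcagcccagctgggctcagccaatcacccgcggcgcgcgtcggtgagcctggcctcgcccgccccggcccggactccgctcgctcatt
Acadm, chr3:153944594-153944893, minus strand: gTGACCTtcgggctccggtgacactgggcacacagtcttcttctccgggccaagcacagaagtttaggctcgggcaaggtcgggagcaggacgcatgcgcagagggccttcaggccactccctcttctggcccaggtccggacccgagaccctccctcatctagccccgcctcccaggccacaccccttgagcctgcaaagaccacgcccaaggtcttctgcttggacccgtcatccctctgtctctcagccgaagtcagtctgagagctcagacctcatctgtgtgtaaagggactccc
Acadvl, chr11:70015379-70015678, minus strand: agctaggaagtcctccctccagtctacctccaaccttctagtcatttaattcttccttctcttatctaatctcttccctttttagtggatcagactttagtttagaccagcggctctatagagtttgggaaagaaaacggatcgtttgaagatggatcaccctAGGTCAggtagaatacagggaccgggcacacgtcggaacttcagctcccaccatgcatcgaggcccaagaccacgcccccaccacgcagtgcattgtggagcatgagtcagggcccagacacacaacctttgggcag

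Counting limits what can be said of several genes. The exons of 10 members overlap a gene on the other strand: Acadvl (Dvl2), Hadha (Garem2), Acaa1a (Myd88), Acaa1b (Dlec1), Acsl5 (Zdhhc6), Eci2 (Gm16984), Acsl1 (Gm45244), Crot (Gm37153), Etfdh (4930579G24Rik) and Bdh1 (Gm15743). Those of Etfb (Gm45233 and Mir7051) and Crot (Gm27941) overlap a gene on the same strand, and whether reads were counted by strand is not stated. Of the member calls, 11 of 25 after 2 weeks of YAP, 16 of 25 after 4 weeks, and 3 of 8 with MYC held when any 1 library was left out. After 2 weeks the calls that did not hold were those of Hadhb, Hadh, Decr1, Decr2, Etfa, Etfdh, Acaa1a, Acaa1b, Acaa2, Ehhadh, Hsd17b4, Bdh1, Pex11a and Pdk4 (adjusted p up to 0.243), and after 4 weeks those of Slc25a20, Hadh, Decr1, Decr2, Acaa1a, Acaa1b, Ehhadh, Pex11a and Pdk4 (adjusted p up to 0.196).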

How the data were processed

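Total liver RNA was sequenced in 12 libraries in 5 groups, made with a Nugen Ovation kit per the labels' protocols. Per the submitters' processing notes, the tools were featureCounts 1.6.3, HISAT2 2.1.0, Trim Galore 0.4.1 and DESeq2 1.20.0 on GRCm38 (mm10), with no role given for each. The annotation release and the strand setting are not given in the sources used here. The tables the authors deposited, 1 per library, hold whole-number read counts by gene symbol, not normalized and not pooled. Chi-square per degree of freedom within groups lay between 11.2 and 107, so no 2 libraries agreed within counting error.

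The main test was edgeR 4.0.16 under R 4.3.3, with filterByExpr, TMM scaling and a robust quasi-likelihood fit with 1 mean per group over all 12 libraries (7 residual degrees of freedom). P-values were adjusted by the Benjamini-Hochberg method over the 17964 genes tested, with calls at 0.05. The fit was run on counts simulated from 1 mean per gene with planted changes. That checks the code and not the calls made here. Log2 CPM carried a prior count of 2. Exon lengths and coordinates are from GENCODE vM21 (GRCm38), promoters from RefSeq.

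The members and lists were chosen with earlier results of these data known, so no p was computed over a list. Genes were named by a fixed rule: in each comparison with controls the 3 members with the largest rise and the 3 with the largest fall among those called, those called in all 3, those whose MYC and 4-week YAP effects differed, and Cpt1a, Acadm, Hadha, Ehhadh and Pdk4. The other members are described by role. In each pathway list, the 2 called genes with the smallest p were named, with Ppara, Cpt1b and Angptl4; results of 2 other genes that the rule names are not reported here. Alternatives were DESeq2 1.42.0, its size factors, total-count scaling, no low-count filter, only the libraries of 1 model, a replicate block and leaving out each library. The members without a promoter window were Decr1, Abcd2, and Acaa2 and Hsd17b4 on chromosome 18.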

Additional observations from a re-analysis of the deposited data

Results flagged for a closer look

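The effect of MYC and that of 4 weeks of YAP differed by a test of the difference itself, edgeR's quasi-likelihood interaction contrast, for 4 mitochondrial genes. The difference, MYC effect minus YAP effect, was 1.66 log2 units for Cpt2, 1.46 for Eci1, 1.05 for Acads and 0.97 for Hadhb, with adjusted p of 0.00921, 0.00508, 0.0315 and 0.0199. Each gene fell in the 4-week YAP livers and did not pass in the MYC livers. In 3 of 3 MYC livers Eci1 (64.3 to 77.4 CPM) lay above all 3 of the 4-week YAP livers (22.4 to 27.4 CPM), whereas the controls of the models were alike, at 54.0 and 73.1 CPM in MYC controls and 62.0 and 64.3 CPM in YAP controls.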

How the results depend on the processing

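With DESeq2's size factors inside edgeR, the 3 comparisons with controls kept the direction and side of the threshold of all 30 members. Under total-count scaling the YAP 2-week comparison had 13 members lower (7 mitochondrial, 4 peroxisomal) in place of 23, the 4-week comparison 11 (6 and 3) in place of 23, and MYC 5 higher in place of 2 with 2 peroxisomal members lower. The difference of effects then had 2 higher and 1 lower, and the YAP times differed in 3 genes. The same scaling turned Cpt1a and Acadl to 0.39 and 0.12 after 2 weeks, Cpt1a, Acadl, Acadm and Hadh to 0.34, 0.32, 0.57 and 0.043 after 4 weeks, and Cpt2, Acadl, Acads, Etfa and Etfb to 0.20, 0.22, 0.12, 0.35 and 0.15 with MYC. Without the low-count filter, 4 peroxisomal members fell at each YAP time, 2 mitochondrial members fell with MYC, and the YAP times differed in 42 genes. Of the 30910 genes then tested, 6.16%, 7.67% and 4.45% were lower in the 2-week YAP, 4-week YAP and MYC comparisons. DESeq2 gave 12 members lower with MYC (3 mitochondrial, 7 peroxisomal), 8 higher and 1 lower for the difference of effects, where 2350 genes were called, and 77 genes between the YAP times. A fit of each model alone gave 2 peroxisomal members lower with MYC, against 7.87% of all genes, and 0 genes between the YAP times. Leaving Eci2 out of the peroxisomal members moved the 2-week compartment difference over controls to 0.28, from 0.12 with it. Apart from the scaling, whose construction sets the shift, the cause was not tested.

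Same-numbered libraries showed no clear pairing: correlations of their deviations ran from -0.14 to 0.17 over 21 pairs, 3 of them over 0.1. Deviations in a group of 2 mirror each other and some pairs cross the models, so these values are not separate checks. A replicate block gave 22 members lower after 2 weeks, 19 after 4 (4 peroxisomal) and 5 with MYC (1 higher), and 4894, 5058 and 2636 genes. With this block 12.8%, 13.4% and 6.82% of all genes were lower.

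Leaving out each library in turn gave, after 2 weeks, 1 to 2 members higher, 11 to 16 lower (6 to 11 mitochondrial, 2 to 3 peroxisomal) and 2445 to 3671 genes. After 4 weeks it gave 1 to 2 higher, 15 to 24 lower (10 to 14 and 3 to 8) and 3324 to 6231 genes. With MYC it gave 0 to 2 higher, 3 to 16 lower (0 to 5 and 1 to 9) and 792 to 4192 genes. Between the YAP times it gave 0 to 1 higher, 0 lower and 1 to 501 genes, and for the difference of effects 1 to 7 higher, 0 to 1 lower and 338 to 1868 genes. The compartment difference over controls ran from 0.05 to 0.19, -0.10 to 0.12 and 0.71 to 1.05. Signs turned near 0: Acadm ran from -0.11 to 0.33 after 2 weeks and -0.56 to 0.054 after 4, Cpt1a from -0.32 to 0.11 after 2 weeks, Eci2 from -0.032 to 0.45 after 4, and Etfa from -0.18 to 0.052 and Eci1 from -0.036 to 0.40 with MYC.

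Every member had at least 10 reads in every library, and neither depth nor group size was varied.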
